A study of Mus musculus with 37 samples.

Results

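The visceral endoderm of the mouse embryo at embryonic day 6.5 was compared between embryos from Bap1 knockout eggs and control embryos, with 2 libraries of each genotype and all genes of the table. These 4 libraries are 4 of 37 in the series, and the table lists 55401 genes. Knockout mothers were Bap1 flox/flox and carried Gdf9-iCre, a recombinase driven by the promoter of the oocyte gene Gdf9. Control mothers were Bap1 flox/flox without iCre, and both were mated with PWK males. Deletion therefore took place in the oocyte, and the embryo received an intact Bap1 allele from the PWK father, so that embryos called maternal knockout (matKO) are not null for Bap1. Control embryos kept the maternal allele too. Loss of Bap1 in the oocyte and loss of the embryo's own maternal allele therefore cannot be told apart. Poly(A) RNA was amplified with SMART-Seq mRNA and libraries were made with Nextera XT. The labels do not say how many embryos or litters stand behind a library. In visceral endoderm the 2 replicates of each genotype differed in Y-linked RNA, so they did not come from the same embryos. How much of their spread is technical is unknown.

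The visceral endoderm is the epithelium that surrounds the epiblast and the extraembryonic ectoderm before the placenta and the gut take over their functions. It takes up maternal protein by endocytosis through megalin, cubilin and amnionless, and it secretes apolipoproteins and transport proteins such as transthyretin (Ttr) and retinol binding protein. Its anterior part secretes antagonists of Nodal, Wnt and BMP that set the head end of the embryo. BAP1 is the catalytic subunit of the PR-DUB complex, which removes from histone H2A the ubiquitin that Polycomb repressive complex PRC1 places there.

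The libraries carried the markers of their label. Ttr stood at 1015 and 1785 FPKM in control visceral endoderm and at 609 and 1165 in the knockout, against at most 0.502 in the 4 epiblast libraries and 1.59 in the 3 libraries of extraembryonic ectoderm. The ranges of the genotypes overlapped. All 23 genes of the visceral endoderm identity list reached 1 FPKM in each of the 4 libraries, and the epiblast marker Pou5f1 was at 0.213 FPKM in control replicate 1 and listed at 0 in the others. The median log2 fold change of the identity list was -0.06, beside 0.05 over all genes tested. Bap1 itself (chr14:31251450-31259944, + strand) had 14.0 and 15.6 FPKM in the control and 18.3 and 19.4 in the knockout, a log2 fold change of 0.33 ± 0.37 (SE). Both knockout values lay above both control values, but the difference was smaller than its error. Values per gene do not tell RNA of the deleted allele from that of the intact one.

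Summed FPKM per library was between 628290 and 698780, and between 10476 and 11117 genes reached 1 FPKM. Y-linked RNA was present in control replicate 1 and knockout replicate 2 and listed at 0 in the other 2 libraries, so that sex was balanced over genotype. Knockout replicate 1 carried hemoglobin RNA: the 16 blood and decidua markers summed to 48.6 FPKM there and to between 0.146 and 0.927 in the other 3 libraries. Hba-a1 was at 16.6, Hbb-bs at 15.6 and the decidual prolactin gene Prl8a2 at 2.76 FPKM in that library. The stromal genes Dcn, Col1a1 and Col3a1 and the receptor gene Pgr were listed at 0 there, so decidual RNA rests on Prl8a2 alone. The part of that RNA in the results was not tested, and the medians of the main lists are also given without that library.

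1 gene model passed the test in visceral endoderm. Values were compared as log2(FPKM + 1) with limma over 13376 genes, in a fit shared with 4 epiblast libraries, at a Benjamini-Hochberg adjusted p under 0.05. Gm44805 fell in the knockout, which is 0.00748% of the genes tested, and no gene rose (0.0%). At an unadjusted p under 0.05 there were 110 genes higher (0.822%) and 60 lower (0.449%), or 1.27% in all. The other genes described below are given by their values and are not called. Those in the gene lists and those named by the rule on level and separation had an adjusted p of 1 in limma.

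Gm44805 (ENSMUSG00000109350.1, chr7:19671584-19681423, - strand, GRCm38) is annotated as a readthrough model that joins Apoc4 to Apoc2, the gene of the cofactor that activates lipoprotein lipase. It was at 1670.4 and 444 FPKM in control visceral endoderm and at 2.43 and 2.89 FPKM in the knockout. Both control libraries lay far above both knockout libraries. The log2 fold change was -7.88 ± 0.57 (SE), with an adjusted p of 0.0031 in limma. In epiblast the model was listed at 0 in both control libraries and was at 0.257 and 0.673 FPKM in the knockout.

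The difference between the effects in visceral endoderm and epiblast was -8.42 on the log2 scale (adjusted p = 0.034 in limma), the only called difference among the 13376 genes (0.00748% lower, 0.0% higher). At an unadjusted p under 0.05 there were 90 differences in each direction (0.673% each, 1.35% in all). The call on this difference was lost in 7 alternatives, without a filter (adjusted p = 0.896 in limma), with a term for Y-linked RNA (0.189) and in 5 of 8 omissions of 1 library. Those 5 were knockout replicate 1 (0.121) and 2 (0.0689) of visceral endoderm, and control replicate 1 (0.323), control replicate 2 (0.314) and knockout replicate 1 (0.0694) of epiblast. In the epiblast itself 0 genes were called in either direction (0.0%), with 217 genes higher (1.62%) and 89 lower (0.665%) at an unadjusted p under 0.05, or 306 in all (2.29%). Extraembryonic ectoderm, with 1 control library, listed Gm44805 at 0 in the control and at 0 and 0.458 FPKM in the knockout.

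The annotation shows what this model shares with its neighbours, and the sequences below are shown because no base of Gm44805 is its own. Of its 765 exonic bases, 646 (84.4%) lie in exons of Apoc2 and 119 (15.6%) in exons of Apoc4. Of its 50-base words, 87.9% were also found in other annotated genes and the rest in none. Reads over that rest could tell the models apart, but reads were not examined. Its coding sequence (294 bases, chr7:19671761-19673601, - strand, GENCODE M21) is contained whole in all 3 annotated Apoc2 transcripts, so that a read from it does not tell the models apart. Capitals mark its start and stop codons.
Gm44805 coding sequence: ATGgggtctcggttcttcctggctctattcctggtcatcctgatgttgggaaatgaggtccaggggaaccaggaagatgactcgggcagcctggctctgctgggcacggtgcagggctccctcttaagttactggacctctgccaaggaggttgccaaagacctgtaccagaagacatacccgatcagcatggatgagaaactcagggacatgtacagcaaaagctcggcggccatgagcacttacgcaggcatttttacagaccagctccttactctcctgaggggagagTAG

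The RefSeq start of Gm44805 is that of Apoc4, 3519 bases upstream of the start of Apoc2. The promoter windows, from the RefSeq table for GRCm38.p6, were cut to the bases outside annotated exons, which leaves 231 bases for Gm44805 and Apoc4 (chr7:19681480-19681710, - strand) and 141 for Apoc2 (chr7:19677942-19678082, - strand). They were searched on both strands for TGATAA and AGATAA, forms of the motif bound by GATA factors, and for CAAAGTCCA, a form bound by HNF4. Matches are in capitals.
Gm44805 and Apoc4 promoter: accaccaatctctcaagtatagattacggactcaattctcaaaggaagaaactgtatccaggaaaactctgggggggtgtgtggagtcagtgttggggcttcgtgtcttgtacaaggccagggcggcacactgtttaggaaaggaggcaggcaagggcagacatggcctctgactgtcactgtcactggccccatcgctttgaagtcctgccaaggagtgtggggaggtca
Apoc2 promoter: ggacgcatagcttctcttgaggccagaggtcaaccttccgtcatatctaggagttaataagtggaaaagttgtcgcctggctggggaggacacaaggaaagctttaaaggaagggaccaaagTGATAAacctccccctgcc
The Apoc2 window held TGATAA once, as 4.17% of all promoters do over the same positions, and the shared window of Gm44805 and Apoc4 held none of the 3 motifs. AGATAA was found in 9.52% of promoters over the longer window, TGATAA in 7.56% and CAAAGTCCA in 0.344%. Over the shorter window AGATAA was found in 5.31% and CAAAGTCCA in 0.262%.

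No neighbour of the model was called. Apoc2 was at 3303 and 11996 FPKM in the control and at 3466 and 5413 in the knockout, with overlapping ranges and a log2 fold change of -0.54 ± 0.59 (SE). Apoc4, a minor apolipoprotein, was at 9.88 and 21.3 FPKM in the control and at 3.78 and 7.30 in the knockout, with a log2 fold change of -1.31 ± 0.45. Its knockout values lay below its control values. Further along the cluster, Apoc1 was at 401 and 599 against 227 and 254 FPKM, again without overlap. Apoe was at 9654 and 1906 against 6862 and 1595 FPKM, so its replicates differed more than its genotypes.

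Read as a single feature weighted by exonic length, Gm44805, Apoc2 and Apoc4 stood at 1190.5 and 3029 FPKM in the control and at 845 and 1320 in the knockout. Knockout replicate 2 lay above control replicate 1. The log2 fold change of this joint feature was -0.85 ± 0.47 (SE) with an adjusted p of 1 in limma, and with it 0 genes were lower at the threshold. The share of the joint signal assigned to Gm44805 was 32.0% and 3.35% in the control and 0.0658% and 0.05001% in the knockout. The call on Gm44805 as listed was also lost without a filter on low values (adjusted p = 0.234) and without knockout replicate 1 (adjusted p = 0.0767).

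**Figure D1:**
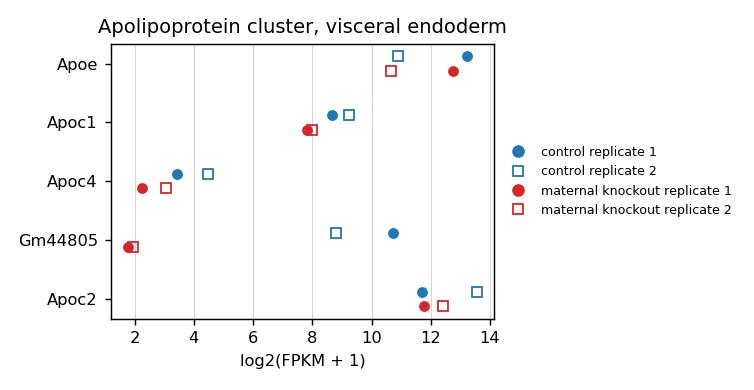
Values of the 5 genes of the apolipoprotein cluster as log2(FPKM + 1) in each visceral endoderm library, control in blue and maternal knockout in red, with filled circles for replicate 1 and open squares for replicate 2. The knockout points of Gm44805 (2.43 and 2.89 FPKM) lie far from its control points, while those of Apoc2 and Apoe overlap.

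Most genes tested had a small log2 fold change between the genotypes. It lay within 0.5 of 0 for 11564 genes (86.5%), was at least 1 for 148 genes and at most -1 for 76. Genes expressed only in epiblast also pass the filter and count here as unchanged, such as Foxd3 and Fgf4, listed at 0 in every visceral endoderm library. The log2(FPKM + 1) scale also makes changes of weakly expressed genes look smaller. Both knockout libraries were above both controls for 1911 genes (14.3%) and below both for 1312 (9.81%). The median absolute log2 difference per gene was 0.415 between the 2 control libraries and 0.323 between the 2 knockout libraries, and 0.245 to 0.400 between libraries of different genotype. Libraries of different genotype were thus at most as far apart as the 2 control libraries. Of these pairs the same-numbered ones were the closer, at 0.280 (replicates 1) and 0.245 (replicates 2). The differently numbered pairs, at 0.348 and 0.400, were farther apart than the 2 knockout libraries. Precision was limited: of 7060 genes whose mean level in visceral endoderm was 5 FPKM or more, 2005 (28.4%) had a 95% interval within -1 and 1 on the log2 scale.

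**Figure D2:**
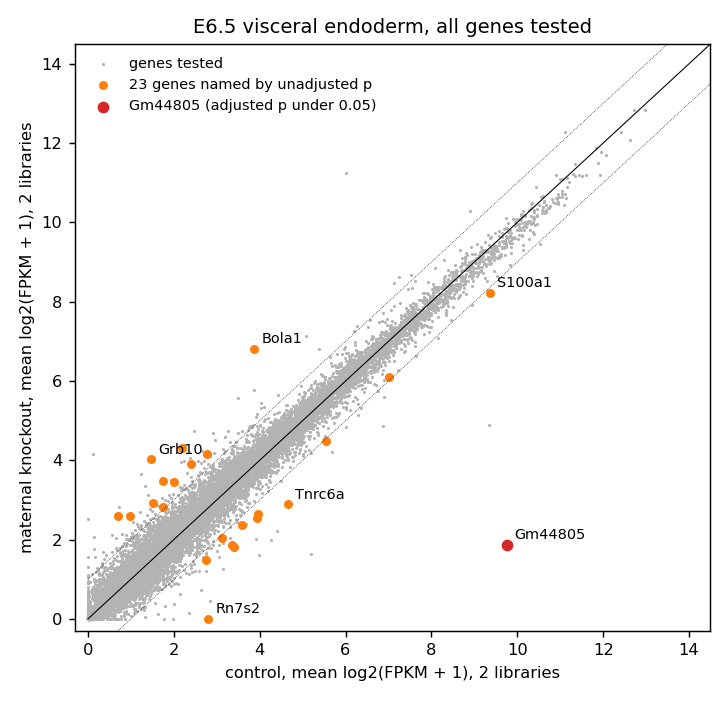
Mean log2(FPKM + 1) of the 2 control libraries (x axis) against that of the 2 knockout libraries (y axis) for the 13376 genes tested, with the diagonal and dotted lines 1 log2 unit from it. Gm44805 stands alone in red, and 23 genes given by unadjusted p are in orange.

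Among genes that are not predicted models and that meet the rule on level and separation, Bola1, a mitochondrial protein of the BolA family, had the smallest unadjusted p on the higher side. It was at 14.1 and 13.2 FPKM in the control and at 91.3 and 135 in the knockout, a log2 fold change of 2.94 ± 0.54 (SE). The 2 genotypes were far apart in this tissue. In the other lineages Bola1 was at 203 and 132 FPKM in control epiblast and 27.5 and 94.5 in knockout epiblast, and at 171 in control extraembryonic ectoderm against 16.3 and 125 in the knockout. In both other lineages the control libraries were the higher ones, the opposite order to visceral endoderm, and the difference between visceral endoderm and epiblast was not called. In a fit of the 4 visceral endoderm libraries alone Bola1 was called (adjusted p = 0.0142 in limma).

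Grb10, an imprinted gene whose product restrains signalling from the insulin receptor, was at 2.01 and 1.58 FPKM in the control and at 16.3 and 14.52 in the knockout, a log2 fold change of 2.56 ± 0.60 (SE). Its epiblast values were 21.1 and 9.18 FPKM in the control and 2.58 and 11.02 in the knockout. Its values in extraembryonic ectoderm were 33.3 against 31.4 and 13.6. The epiblast libraries overlapped between genotypes, the single control of extraembryonic ectoderm lay above both of its knockout libraries, and the difference between visceral endoderm and epiblast (3.75 ± 0.84 on the log2 scale) was not called.

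Timd2, a receptor for ferritin, was at 1.70 and 6.78 FPKM in the control and at 14.7 and 23.9 in the knockout. The aldo-keto reductase genes Akr1c19 and Akr1c13 lie close together on chromosome 13, and Akr1c19 was at 2.45 and 3.71 against 9.90 and 9.93 FPKM. Akr1c13 was at 4.82 and 6.97 against 18.0 and 15.5 FPKM, with 24.2% of its 50-base words found in other genes, so that reads may be divided between family members. In these 3 genes every knockout value was above every control value, as the rule that chose them asked.

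A further 6 genes of this kind were Fgfbp1, a secreted carrier of fibroblast growth factors, Trim38, an E3 ubiquitin ligase of immune signalling, Basp1, Nid1, Gapvd1 and Epb41. Fgfbp1 was at 0.947 and 0.346 FPKM in the control and at 6.99 and 3.65 in the knockout. It is far higher in extraembryonic ectoderm, at 198 to 292 FPKM. Nid1, which encodes the basement membrane protein nidogen, was at 1.87 and 2.91 against 6.59 and 5.69 FPKM. Gapvd1, an activator of the endosomal GTPase Rab5, was at 1.31 and 3.91 against 11.2 and 9.32 FPKM. Log2 fold changes of these 6 were between 1.09 and 1.91.

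On the lower side, S100a1 and S100a16, calcium-binding proteins of a cluster on chromosome 3, had the clearest levels. S100a1 was at 670 and 649 FPKM in the control and at 247 and 359 in the knockout, a log2 fold change of -1.14 ± 0.41 (SE). S100a16 was at 49.6 and 42.0 against 21.9 and 21.1 FPKM, a log2 fold change of -1.05 ± 0.35. Spp2, which encodes a secreted phosphoprotein, was at 111 and 148 against 63.9 and 71.0 FPKM. In these 3 genes every knockout value was below every control value, as the rule that chose them asked.

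Tnrc6a, a scaffold of microRNA silencing, was at 16.002 and 36.6 FPKM in the control and at 5.32 and 7.81 in the knockout. Bik, which encodes a protein that promotes apoptosis, was at 7.95 and 7.58 against 4.28 and 2.19 FPKM. Ifitm1, a membrane protein of antiviral defence, was at 6.56 and 13.001 against 4.601 and 1.39 FPKM, while knockout epiblast had 28.0 and 28.8 FPKM beside 13.5 and 22.2 in its control. The remaining genes were Vamp5, Mettl21a, Espn, Apoc4, Rsc1a1 and Rn7s2. Rsc1a1 lies wholly in an exon of Ddi2, so its values are uncertain. Rn7s2, a copy of the signal recognition particle RNA with all its 50-base words in other genes, was listed at 0 in both knockout libraries and at 1.46 and 18.6 FPKM in the controls.

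**Figure D3:**
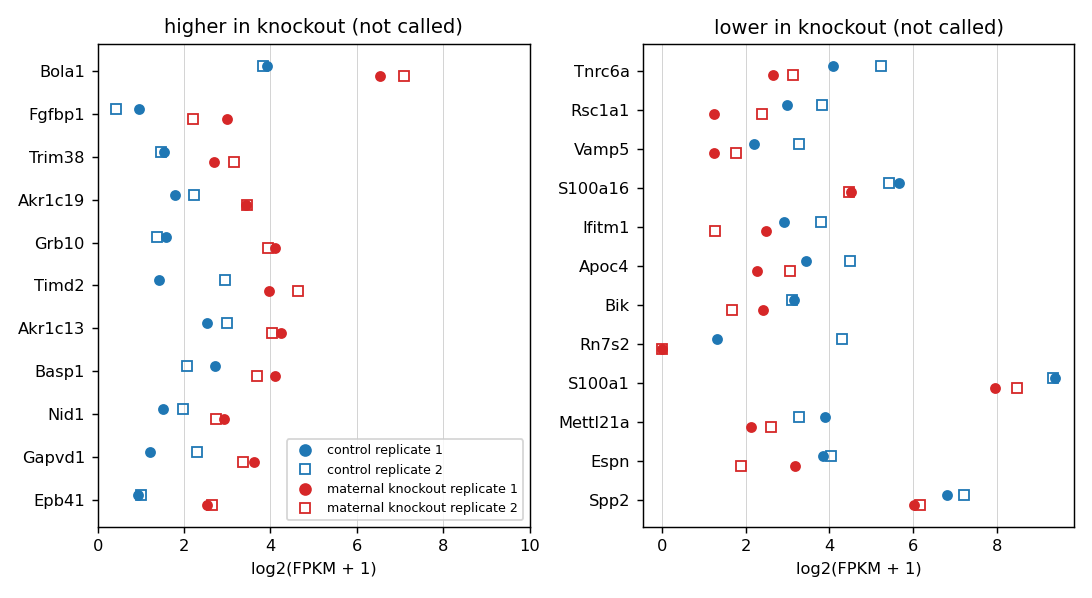
Genes with the smallest unadjusted p among those that meet the rule on level and separation, 11 higher and 12 lower in the knockout, as log2(FPKM + 1) in each library (filled circles, replicate 1, open squares, replicate 2). Knockout points in red lie to one side of control points in blue in every row, as the rule asked, and Bola1, at 91.3 and 135 against 14.1 and 13.2 FPKM, is the most separated row in the left panel.

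Signals of the anterior visceral endoderm were the list with the highest median. The 18 genes had a median log2 fold change of 0.80 (0.05 over all genes tested), all 18 were above 0, and for 9 of them both knockout libraries lay above both controls (14.3% of all genes). None was called, and 6 had an unadjusted p under 0.05 (0.822% of all genes on this side). The list's summed level was 456 and 394 FPKM in the control and 848 and 588 in the knockout. Genes of a list share libraries and cells, so they are not replicates.

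Cyp26a1, which degrades retinoic acid, had the highest mean level of the list, with 247 and 153 FPKM in the control and 483 and 279 in the knockout. Its log2 fold change was 0.91 ± 0.39 (SE), and the difference from epiblast, where it was at 4.63 and 4.16 against 0.196 and 0.0361 FPKM, was 3.19 ± 0.56. Cyp26a1 is not particular to visceral endoderm: extraembryonic ectoderm had 115 FPKM in the control and 112 and 182 in the knockout. Among secreted antagonists, the Wnt antagonist Sfrp1 was at 6.07 and 4.50 against 13.9 and 10.1 FPKM. The activin antagonist Fst was at 9.08 and 4.58 against 52.8 and 11.4 FPKM. Nog, which binds BMPs, was at 1.37 and 0.591 against 5.67 and 1.44 FPKM. In all of these the groups did not overlap, and for Fst and Nog knockout replicate 1 was far above the other 3 libraries.

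The classical antagonists of this domain did overlap. Cer1, which binds Nodal, was at 35.0 and 12.9 FPKM in the control and at 59.1 and 17.04 in the knockout. Dkk1, a Wnt antagonist, was at 74.9 and 25.3 against 65.3 and 54.1 FPKM. Lefty1, which blocks the Nodal receptor complex, was at 1.12 and 0.0415 FPKM in the control and at 3.67 and 0 in the knockout. For these 3 the spread within a genotype was as large as the step between genotypes.

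Of the transcription factors of the domain, Lhx1 and Hesx1 did not overlap between genotypes, while Otx2 and Hhex did. Lhx1 was at 6.53 and 6.88 FPKM in the control and at 13.8 and 10.9 in the knockout, a log2 fold change of 0.78 ± 0.34 (SE). Hesx1, a homeodomain repressor, was at 10.6 and 6.03 against 12.6 and 17.5 FPKM. Otx2 was at 4.85 and 1.29 against 7.19 and 4.72 FPKM, with overlapping ranges. Hhex was at 11.3 and 7.38 against 13.019 and 10.1 FPKM, with a log2 fold change of 0.29 ± 0.37.

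The size of the list's median depended on single libraries. It was 0.44 without control replicate 2 and 1.19 without control replicate 1, and 0.57 without knockout replicate 1, the library with blood RNA. With 16 to 18 of the 18 genes above 0 under each omission of a visceral endoderm library, the direction was kept for most. Markers of other cell types moved with it: the epiblast list summed to 226 and 181 FPKM in the control and to 366 and 269 in the knockout. That list shares Otx2, Fst and Tdgf1 with the anterior list, and its defining genes Pou5f1 and Sox2 were at most 0.213 FPKM in every visceral endoderm library. Its median log2 fold change was 0.24, and its part in the anterior list's values was not tested. In bulk tissue a change in the share of anterior cells and a change in RNA per cell cannot be told apart.

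**Figure D4:**
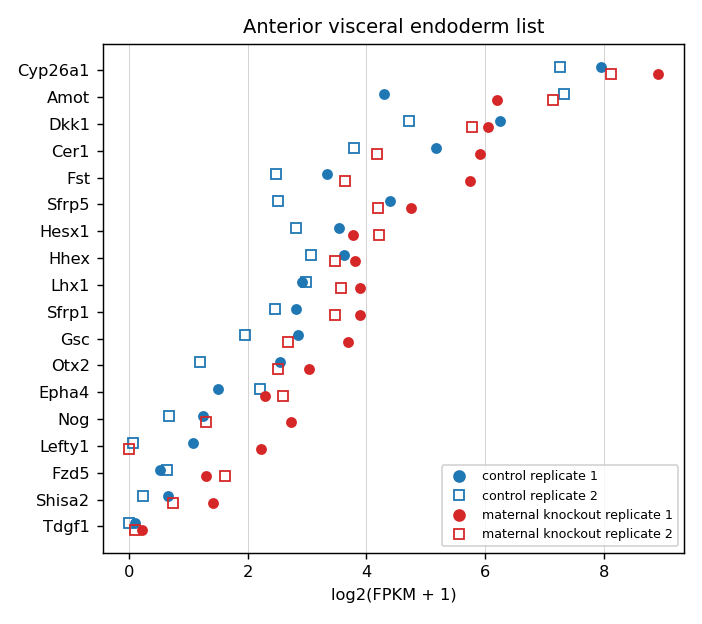
The 18 genes of the anterior visceral endoderm list, ordered by mean level, as log2(FPKM + 1) in each library (filled circles, replicate 1, open squares, replicate 2). Red knockout points lie mostly to the right of blue control points, with overlap for 9 genes, Dkk1, Cer1, Gsc and Hhex among them, and Cyp26a1 is the highest row.

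Primitive streak and mesoderm markers had a median of 0.79 over 11 genes, with 6 wholly above the controls (14.3% of all genes) and 1 below (9.81%). An unadjusted p under 0.05 was found for 1 of them, on the higher side (0.822% of all genes). The list shares Lhx1 and Gsc with the anterior list. Its name does not give the source of its RNA here, since it summed to 173 and 135 FPKM in control visceral endoderm and to 77.4 and 107 in control epiblast. Msx1, Mixl1, Evx1, Lhx1 and Wnt3 were higher in both control visceral endoderm libraries than in both control epiblast libraries. Eomes, Fgf8, Lefty2 and Snai1 were lower, and T, Mesp1 and Gsc overlapped. Mixl1, a homeobox gene of the streak, was at 14.2 and 12.5 FPKM in the control and at 34.5 and 23.5 in the knockout. Eomes, a T-box factor that visceral endoderm also expresses, was at 9.44 and 10.2 against 22.7 and 16.8 FPKM. Evx1 was at 2.47 and 3.40 against 5.86 and 7.49 FPKM, and Fgf8 at 22.2 and 9.13 against 44.4 and 27.5. T, the defining gene of nascent mesoderm, stayed at 0.298 to 1.03 FPKM with a log2 fold change of -0.08 ± 0.48 (SE). Mesp1 did not pass the filter. The list's median was 0.28 without knockout replicate 1, and 0 of its genes were called. Without control replicate 2 it was 0.63, above that of the anterior list (0.44) and below that of the parietal endoderm markers (0.72).

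The transcription factors of visceral endoderm (21 of 26 tested) had a median of 0.38, with 7 wholly above (14.3% of all genes) and 1 below (9.81%). Foxa1, a pioneer factor, was at 1.30 and 0.839 FPKM in the control and at 3.60 and 2.98 in the knockout, a log2 fold change of 1.06 ± 0.29 (SE). Gata6 was at 7.28 and 14.4 against 14.8 and 17.5 FPKM, and Gata4 at 29.6 and 29.2 against 35.9 and 41.3. Sox7, also a parietal endoderm marker, was at 3.69 and 10.1 against 12.8 and 13.8 FPKM. Hnf4a, a regulator of the absorptive epithelium, was at 20.5 and 48.3 against 22.3 and 36.6 FPKM, with overlapping ranges and a log2 fold change of -0.14 ± 0.47. Nr2f2 was the gene below, at 1.37 and 1.41 against 0.741 and 0.311 FPKM. The median was 0.18 without knockout replicate 1.

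The secreted plasma proteins (17 of 24 tested) had a median log2 fold change of -0.43, with 2 genes above 0, 6 wholly below the controls (9.81% of all genes) and 1 above (14.3%). Besides Spp2, Fgg, a fibrinogen chain, was at 38.8 and 32.8 FPKM in the control and at 24.7 and 11.7 in the knockout. Rbp4, the carrier of retinol, was at 1958 and 2429 against 1455 and 1314 FPKM. F10, a clotting factor, was at 30.5 and 31.8 against 22.8 and 22.7 FPKM. Ambp was at 6.78 and 8.02 against 4.68 and 5.11 FPKM, while Afp had a log2 fold change of -0.02 ± 0.37 (SE). The median was -0.04 without control replicate 1, -0.02 without knockout replicate 2 and -0.46 without knockout replicate 1.

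Apolipoproteins and factors of lipoprotein assembly (19 of 20 tested) had a median of -0.14, with 2 wholly above (14.3% of all genes) and 5 below (9.81%). Of the 19 genes, 8 were above 0. Apob, the structural protein of large lipoproteins, had the highest log2 fold change of the list, 1.42 ± 0.46 (SE). It was at 9.31 and 24.8 FPKM in the control and at 39.8 and 45.8 in the knockout. Apoa1 was at 5949 and 4974 against 5085 and 4786 FPKM. Lrp1, a receptor for remnant lipoproteins, was at 3.95 and 8.14 against 1.33 and 1.32 FPKM, and Lcat at 1.69 and 1.86 against 0.251 and 0.929. The list's median was 0.13 without knockout replicate 2 and -0.18 without knockout replicate 1.

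Genes of cholesterol synthesis (22 tested) had a median of 0.47, with 21 above 0 and 12 wholly above the controls (14.3% of all genes). Of all 13376 genes, 7580 were above 0. Sqle, squalene epoxidase, was at 4.27 and 4.85 FPKM in the control and at 11.3 and 7.35 in the knockout. Fdps was at 55.7 and 56.9 against 76.8 and 95.6 FPKM. Srebf2, the regulator of the pathway, had a log2 fold change of -0.00 ± 0.40 (SE). No gene had an unadjusted p under 0.05. The median was 0.29 without knockout replicate 1. Endocytic uptake genes (21 tested) had a median of 0.27, with 5 wholly above (14.3% of all genes). Folr1, the folate receptor, was at 503 and 459 against 664 and 672 FPKM. The uptake receptor genes overlapped, with Cubn at 53.6 and 197 against 123 and 143 FPKM and Amn at 567 and 570 against 631 and 462. The median of this list was -0.02 without knockout replicate 1.

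**Figure D5:**
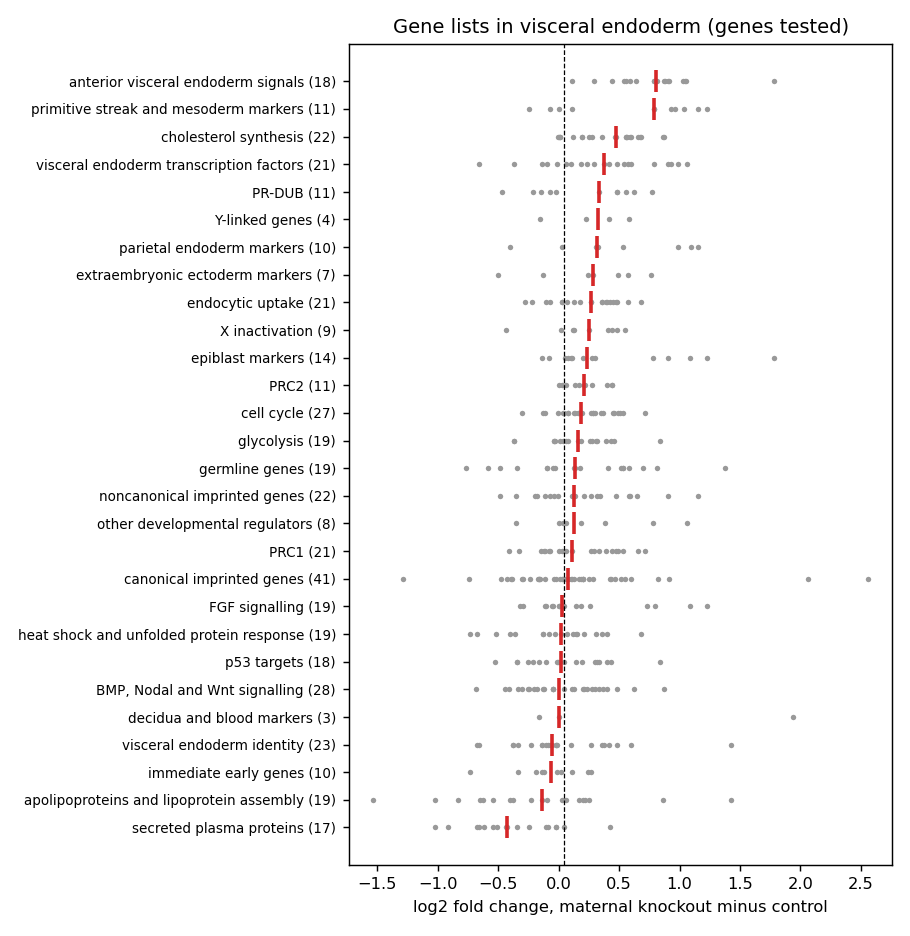
Log2 fold change in visceral endoderm of each tested gene (grey points) in the lists with at least 3 tested genes, with the list median as a red bar, the number tested in brackets and the median of all genes (0.05) as a dashed line. Anterior visceral endoderm signals (0.80) and primitive streak markers (0.79) lie at the top, sharing Lhx1 and Gsc, and secreted plasma proteins (-0.43) at the bottom.

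The PR-DUB list had a median of 0.33 over 11 genes, that of PRC1 0.11 over 21 and that of PRC2 0.21 over 11. The PR-DUB median was -0.21 without control replicate 1. The members with the smallest unadjusted p were Mbd5, with a log2 fold change of 0.62 ± 0.38 (SE), Phc2 with 0.72 ± 0.37 and Ezh2 with 0.44 ± 0.36. Of 39 Hox genes 1 passed the filter, and of 75 other developmental regulators 8 did. Barx1, a homeobox gene, was at 0.120 and 0 FPKM in the control and at 1.12 and 1.30 in the knockout. The other 67 regulators and 38 Hox genes did not pass the filter, and none of them was above 1.81 FPKM in a visceral endoderm library.

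Genes imprinted by maternal H3K27 methylation, the noncanonical class, had a median of 0.13 over 22 tested. Jade1, a member of a histone acetyltransferase complex, was at 7.64 and 15.8 FPKM in the control and at 18.3 and 36.2 in the knockout, a log2 fold change of 1.15 ± 0.46 (SE). Gab1, at 7.66 and 16.9 against 15.7 and 21.7 FPKM, and Sfmbt2, at 4.797 and 13.3 against 9.41 and 11.8, overlapped. The median of the class was -0.21 without control replicate 1 and 0.49 without control replicate 2. The values do not tell maternal from paternal RNA, so they say nothing of allelic expression.

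Genes imprinted by DNA methylation had a median of 0.07 over 41 tested. Besides Grb10, the paternally expressed Mest was at 47.8 and 22.2 FPKM in the control and at 194 and 101 in the knockout, a log2 fold change of 2.07 ± 0.65 (SE). Dlk1, a growth regulator of the Notch ligand type, was at 20.3 and 6.66 against 7.08 and 2.40 FPKM. The other 38 genes tested lay between -0.74 and 0.92 on the log2 scale. Xist was at 0.0529 and 2.00 FPKM in the control and at 1.502 and 0.490 in the knockout, in each genotype higher in the library without Y-linked RNA.

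Signalling lists lay near all genes, with medians of 0.00 for BMP, Nodal and Wnt signalling (28 genes) and 0.03 for FGF signalling (19 genes). Within the latter, Fgf10 was at 2.17 and 3.56 FPKM in the control and at 5.14 and 5.47 in the knockout, and Fgf5 at 18.2 and 8.65 against 38.5 and 20.2. Medians were 0.18 for cell cycle genes, 0.16 for glycolysis, 0.13 for germline genes, 0.02 for p53 targets, 0.02 for heat shock and unfolded protein response, and -0.07 for immediate early genes. None of these lists held a called gene. Parietal endoderm markers had a median of 0.32 over 10 genes, with 5 wholly above (14.3% of all genes). It was between 0.25 and 0.72 with 1 visceral endoderm library left out, the highest value without control replicate 2. The 7 tested extraembryonic ectoderm markers had a median of 0.28, which was -0.04 without knockout replicate 1 and 0.72 without knockout replicate 2, with summed levels over all 14 listed of 12.6 to 22.2 FPKM in visceral endoderm against at least 928 in extraembryonic ectoderm. X inactivation genes had a median of 0.25 over 9 genes, which ran from -0.38 without control replicate 1 to 0.87 without control replicate 2. Y-linked genes had one of 0.32 over 4, which ran from -0.79 without knockout replicate 2 to 1.52 without knockout replicate 1. The genes of the mitochondrial genome were listed at 0 in every library. Of 20 genes of the 2-cell stage, 1 passed the filter.

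Genes called at earlier stages were followed into this tissue. In the 26 total RNA libraries, fully grown oocytes with deleted Bap1 had 126 genes higher (0.83% of 15184) and 777 lower (5.12%), and late 2-cell maternal knockout embryos had 3238 higher (21.3%) and 3181 lower (20.9%). Of the 126 genes higher in knockout oocytes 87 were tested in visceral endoderm, with a median log2 fold change of -0.01, and of the 777 lower 357 were, with a median of 0.14. The genes higher and lower in late 2-cell embryos had medians of 0.09 over 2021 genes and 0.07 over 2614. None of these genes was called in visceral endoderm, where 0.00748% of all genes were, and all 4 medians lay within 0.1 of that of all genes (0.05). Of the 357 genes lower in oocytes 78 were wholly above the controls (14.3% of all genes) and 28 below (9.81%). Of the 87 higher in oocytes, 14 were above and 7 below. For late 2-cell embryos the counts were 349 and 177 of the 2021 higher, and 377 and 192 of the 2614 lower. Bap1 was lower in knockout oocytes by a log2 fold change of -2.09 and in late 2-cell embryos by one of -1.04, against 0.33 in visceral endoderm.

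Differences from epiblast with the smallest unadjusted p, none of them called, included Pga5 and Ly6e in the upward direction besides Bola1, Grb10 and Cyp26a1. Pga5, a pepsinogen gene, was at 195 and 99.4 FPKM in control visceral endoderm and at 384 and 327 in the knockout, and at most 2.78 in epiblast. Ly6e, a membrane-anchored surface protein, was at 20.3 and 9.04 against 78.2 and 36.7 FPKM, and its epiblast values were 94.0 and 97.0 in the control and 15.6 and 56.1 in the knockout. In the downward direction, Foxd3 and Fgf4 were listed at 0 in all 4 visceral endoderm libraries, so their differences come from the epiblast alone. Ep400, a chromatin remodeller, was at 3.73 and 5.68 FPKM in control visceral endoderm and at 1.34 and 1.24 in the knockout, with 4.40 and 4.16 against 8.89 and 5.63 in epiblast. Retreg3, a receptor of endoplasmic reticulum autophagy, was at 2.42 and 4.30 against 1.21 and 0.555 FPKM. Trex1 lies wholly in exons of Atrip and is uncertain.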

How the data were processed

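Values are FPKM as the authors deposited them, in 1 table of 55401 genes for the 11 poly(A) libraries. The submitters' processing notes name Trim Galore 0.6.6, STAR 2.7.9, StringTie 2.1.7 and mm10, without the role of each. The deposited column of control epiblast replicate 1 holds 1 value below 0, which was set to 0. FPKM keeps no read count, so depth is unknown and no counting interval was computed. Strand use in counting is not given in the sources used here.

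Positions come from GENCODE M21 (GRCm38), in which 55141 of the identifiers were found. Of the 8 visceral endoderm and epiblast libraries, 2 or more had to reach 1 FPKM for a gene to be analysed. Values were taken as log2(FPKM + 1), on which changes of weakly expressed genes look smaller than they are. The 4 group means entered 1 limma 3.58.1 fit (R 4.3.3, eBayes with trend, two-sided, Benjamini-Hochberg, threshold 0.05), with 4 residual degrees of freedom, 2 of them within visceral endoderm. The 26 total RNA libraries were fitted apart. Labels give no pairing. Scripts were tested on simulated data, with Python 3.11.15, pandas 2.3.3 and matplotlib 3.10.9 for tables and plots.

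The comparison, the 31 gene lists (695 of 697 genes found) and the rules were chosen with earlier results of these data known. The rule names Bap1 and Ttr, and called genes whose higher group averaged 5 FPKM or more and whose groups do not overlap, without predicted models, filled to 12 per direction by unadjusted p, of which 1 is not reported here. It also names the member of each list with the smallest p, and 5 genes per direction for the difference from epiblast. Gm44805, its neighbours, Mest, Dlk1 and other list genes were chosen after their values were seen, as was the joint reading of Gm44805, Apoc2 and Apoc4. Alternatives were a pseudocount of 0.1, 2 other filters, 2 scalings, no trend, a replicate block, a term for Y-linked RNA, visceral endoderm alone, a limit of 1 on the log2 change, and leaving out each library.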

Additional observations from a re-analysis of the deposited data

Results flagged for a closer look

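The effect of maternal knockout on Gm44805 differed between visceral endoderm and epiblast by -8.42 on the log2 scale, tested as an interaction in limma (adjusted p = 0.034). The model fell in both knockout libraries of visceral endoderm (1670.4 and 444 against 2.43 and 2.89 FPKM) and was under 1 FPKM in all 4 epiblast libraries, so the difference is set by visceral endoderm. Of its 50-base words 87.9% were found in other annotated genes, and all of its exonic bases lie in exons of Apoc2 or Apoc4. The call on this difference was lost in 7 alternatives, without a filter (adjusted p = 0.896 in limma), with a term for Y-linked RNA (0.189) and in 5 of 8 omissions of 1 library. Read jointly with these, the difference was -0.68 ± 0.67 (SE) with an adjusted p of 1.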

How the results depend on the processing

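In visceral endoderm the count of genes higher, 0 as reported, was 1 in the fit of that tissue alone (Bola1) and between 0 and 1 with single libraries left out (Gm10925 without control replicate 2, Gm28439 without knockout replicate 2). The count of genes lower, 1 as reported, was 0 without a filter, 0 with Gm44805, Apoc2 and Apoc4 as a joint feature, and between 0 and 2 with libraries left out. For the difference from epiblast, the count higher (0 as reported) was 1 with the replicate block (Cyp26a1) and between 0 and 1 with libraries left out, and the count lower (1 as reported) was 0 without a filter, 0 with the term for Y-linked RNA, 0 with the joint feature, 2 with the replicate block (Gm28661 and Gm44805) and between 0 and 2 with libraries left out. In those omissions Gm44805 was called in 3 of 8, and the count of 2, without knockout replicate 2 of visceral endoderm, was Gm28437 and Gm49356. More genes tested is part of the construction of the unfiltered fit, the joint feature merges the called model with its neighbours, and the cause of the other changes was not tested. A group with a library left out keeps 1 library, which is assumed to vary like the other groups.

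Replicate numbers come from the titles, which do not say that they pair samples. Deviations of same-numbered libraries correlated at 0.43 in visceral endoderm and 0.59 in epiblast. The replicate block left 0 genes higher and 1 lower in visceral endoderm, with 395 and 241 at an unadjusted p under 0.05 against 110 and 60 without it.

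Of 1328 recomputed gene values, 1301 kept direction and side of the threshold, 9 lost their call, 6 gained one and 12 changed direction. These totals do not measure robustness. Many of the genes were chosen with groups that do not overlap, so leaving out 1 library could not reverse them in visceral endoderm. Models called in any alternative were added to the set, so some gained calls were built in. With libraries left out, log2 fold changes that changed direction ran from -0.13 to 4.00 for Hba-a1, -0.15 to 1.31 for Kdm5d, -0.29 to 0.16 for Trex1, -3.71 to 3.04 for Gm28661, -0.79 to 11.24 for Gm10925, -9.35 to 0.43 for Gm28437, -0.029 to 8.12 for Gm28439, -1.47 to 0.39 for Apoc2 and -1.54 to 0.80 for Apoe. Trex1 was at 0.0069 under TPM scaling. The median of all genes was 0.11 under TPM scaling and -0.05 under median centring, and the medians of the anterior list were 0.92 and 0.70. Of 517 recomputed list medians 48 moved by more than the spread between replicates and 37 changed sign. With 2 libraries a genotype and unknown depth, differences under about 1 log2 unit mostly lay within the 95% interval of a single gene. That interval reached a median of 0.94 to either side and is not adjusted for the number of genes tested. Far larger differences also missed the adjusted threshold in the reported fit, such as Bola1 (2.94 ± 0.54, SE) and Grb10 (2.56 ± 0.60).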

Other observations

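Predicted models outside the rule for named genes held the next smallest p. Gm773 was listed at 0 in both control libraries and at 3.02 and 7.15 FPKM in the knockout, with an adjusted p of 0.425 in limma and a log2 fold change of 0.00 in epiblast. Gm10804 was at 3.26 and 2.77 FPKM in the control and at 0.111 and 0.540 in the knockout. Both were chosen after their values were seen, and neither was called.

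Pseudogene models on chromosome 1 whose 50-base words all occur in other annotated genes were listed at or near 0 in some libraries and high in others of the same genotype or lineage. Gm10925 was listed at 0 in control replicate 1 and was at 4190.1, 1289 and 4545 FPKM in the other visceral endoderm libraries, and Gm28439 was at 300.3 FPKM in knockout replicate 1 and at most 0.179 in the others. Gm28437 was listed at 0 in knockout replicate 1 and at 361, 1169 and 874 FPKM in the others.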
